A study of Mus musculus with 12 samples.

Results

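Colon of wild-type mice given dextran sulfate sodium (DSS) alone was compared with colon of wild-type mice given ImP alone, over all genes of the deposited RNA sequencing table. The members were the 3 libraries titled DSS 2, 3 and 5 and the 3 titled ImP 1, 3 and 4, 6 of the 12 libraries in the series, chosen by treatment label. DSS, a sulfated glucan dissolved in drinking water in most protocols, damages the colonic lining and serves as a common chemical model of colitis. What ImP stands for is not stated in the labels. The title of the series names Angelica dahurica polysaccharides, and its text mentions a colitis treatment of 7 days in which ImP was given or withheld. The other 6 libraries are 3 that received both agents (DSS_ImP) and 3 with a null treatment label (Ctrl), and they enter here as a shared estimate of the spread and as values beside the comparison. Neither side of the comparison is untreated, so the Ctrl values are given beside the main genes. Strain, sex, age and doses are not given in the labels, nor whether each library is a separate animal, so p-values reflect the spread among these samples only, which may be technical.

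The 6 libraries held between 56771046 and 66707248 estimated counts. Levels are given as CPM, the estimated counts scaled by normalised library size, and a log2 change is DSS minus ImP with its standard error (SE). The colon label was checked on epithelial markers. Epcam stood at 1305 to 1582 CPM in DSS and 1454 to 1604 CPM in ImP, and the intestinal transcription factor Cdx2 stood at 201 to 216 CPM in DSS and 139 to 182 CPM in ImP (0.40 ± 0.20, edgeR adjusted p = 0.583). Transcripts of other organs split the DSS group. The pancreatic chymotrypsinogen gene Ctrb1 stood at 0.0722 CPM in DSS 2, 5.26 in DSS 3 and 4.94 in DSS 5, and at 4.37, 5.2 and 6.10 CPM in ImP 1, 3 and 4. The 15 liver genes that were below 1 CPM in every DSS_ImP library, a threshold set after their values were seen, summed to 126.9 CPM in DSS 2, 2.41 in DSS 3 and 3.47 in DSS 5, and to between 2.85 and 3.92 CPM in ImP. The Ctrl libraries were like DSS 2 in this, with 148 to 164 CPM of the liver genes and 0 to 1.29 CPM of Ctrb1. Ctrl values given below thus come from libraries whose traces differ from those of ImP, DSS 3 and DSS 5. The first principal component of the 6 libraries held 28.9% of the variance, with DSS 2 at -74.5, DSS 3 and 5 at -4.71 and -7.38, and the ImP libraries between 20.9 and 37.4. The comparison was therefore repeated without DSS 2.

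Interferons are secreted antiviral signals. They act through cell-surface receptors and JAK kinases, and between them type I interferons and interferon gamma switch on genes for RNA sensors, antiviral effectors, immunity-related GTPases and the machinery that loads peptides on MHC class I. In the intestine a resting level of this programme is known in epithelium and in immune cells.

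The largest named group of genes that differed between DSS and ImP colon was this interferon programme, whose called members were all lower in DSS. Of 22279 genes tested, 164 (0.736%) were called by the quasi-likelihood test of edgeR at a false discovery rate of 0.05. Of these, 34 were higher in DSS (0.153% of all genes) and 130 were lower in DSS (0.584%). The median log2 change over all genes was -0.0028, and 2109 of the 22279 had an unadjusted p below 0.05 in edgeR. Of the 130 lower genes, 46 belonged to 3 lists: interferon response, interferon gamma targets and GTPases, and MHC class I presentation. A smaller group that was higher in DSS held osteopontin (Spp1), matrix metalloproteinase and lysyl oxidase genes, haptoglobin (Hp), globins and a pair of neutrophil markers. All 164 called genes had the 3 DSS libraries wholly above or wholly below the 3 ImP libraries. By the same rule 7.38% of all tested genes had every DSS library below every ImP library and 7.23% had every DSS library above.

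**Figure D1:**
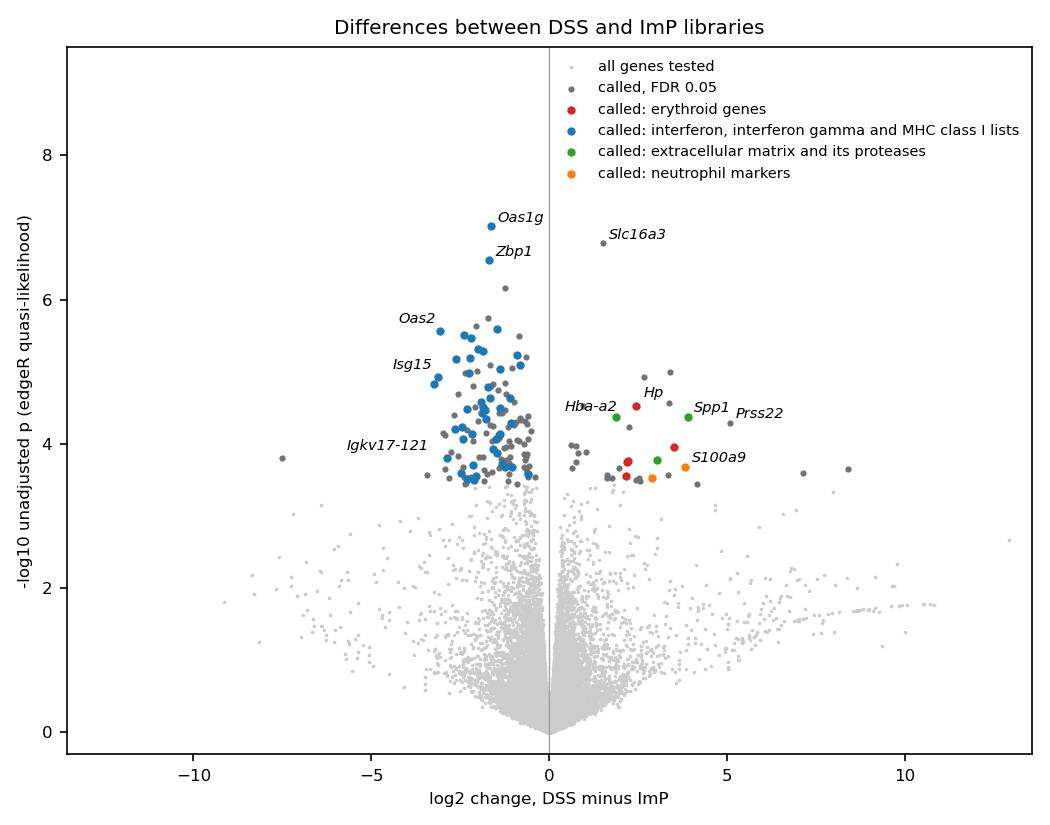
Each point is a gene, placed by its log2 change (DSS minus ImP, horizontal) and the -log10 of its unadjusted p from edgeR's quasi-likelihood test (vertical). Coloured points are called genes of the named lists; the 46 called genes of the interferon, interferon gamma and MHC class I lists all lie left of 0, and the 5 called erythroid genes lie right of it.

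The number of calls rested on few libraries. Without DSS 2, edgeR called 30 genes (0.13% of 23065 tested), 10 higher and 20 lower in DSS, and 28 of them were among the 164. Without DSS 5 it called 6, without ImP 4 it called 39 and without DSS 3 it called 101, whereas leaving out ImP 1 or ImP 3 left 134 and 195 calls. Over the 164 genes the log2 change without DSS 2 was 0.776 to 1.18 times that with it (median 0.967). That is a description only, since calls that used DSS 2 chose these genes and their lack of overlap between groups fixes the direction. A fit on DSS 3, DSS 5 and the ImP libraries alone called 0 genes with edgeR, with 1678 at an unadjusted p below 0.05, and 486 with DESeq2, of which 160 were among the 164. Only 4 genes were called in all 6 fits that left out 1 library: Zbp1, Oas1g, Trim34a and Slc16a3. Trim34a and Slc16a3 were singled out after their values were seen. Every other gene described below as called lost its call without DSS 5, and of the higher ones only Slc16a3, Spp1 and Prss22 were called without ImP 4.

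**Figure D2:**
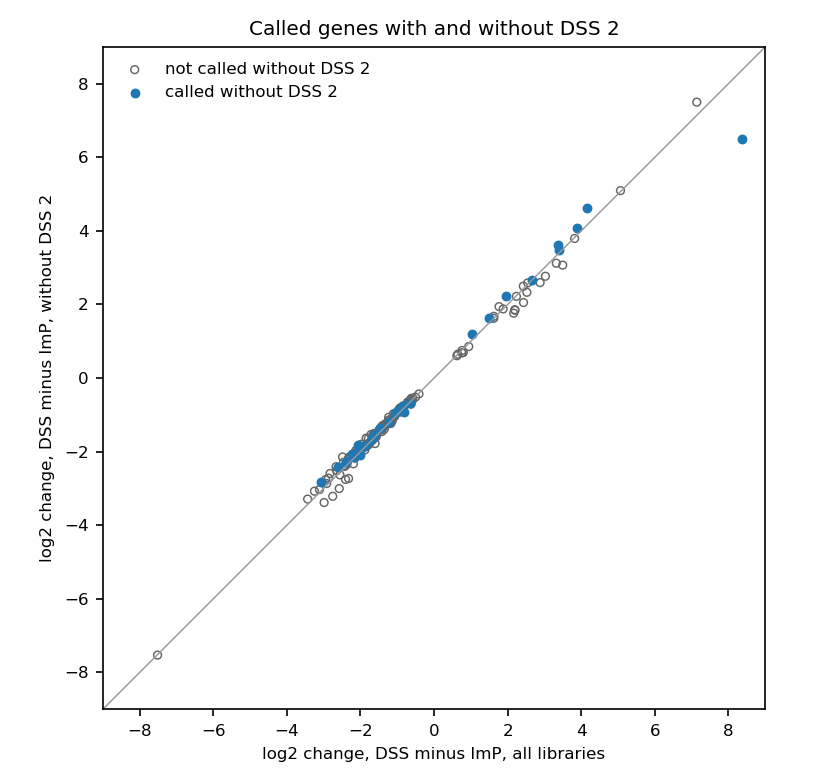
The log2 change (DSS minus ImP) of each of the 164 called genes in the fit with all libraries (horizontal) and in the fit without DSS 2 (vertical), with the line of equality. Filled points are the 28 genes still called without DSS 2; all 164 lie on the same side of 0 on both axes, which the lack of overlap between the groups fixes.

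Of the 32 genes of the interferon-response list, 30 fell in DSS and 0 rose, with a median log2 change of -1.87 and a range of -3.25 to -0.83. Every one of the 32 had all DSS libraries below all ImP libraries, including the 2 that were not called. The ubiquitin-like modifier Isg15 (ENSMUSG00000035692) had 9.23, 13.9 and 8.36 CPM in DSS 2, 3 and 5, and 81.4, 49.9 and 142 CPM in ImP 1, 3 and 4. The highest DSS library was thus below the lowest ImP library, ImP 3. Isg15 differed by -3.12 ± 0.44 on the log2 scale (edgeR adjusted p = 0.00985), and the adjusted p was 0.0606 without DSS 2 and 0.0701 without DSS 5. In libraries outside the comparison it had 9.69 to 25.8 CPM in DSS_ImP and 82.6 to 106 CPM in Ctrl. Ifi44 (ENSMUSG00000028037), an interferon-induced protein, differed the most of the list, with 5.11, 10.8 and 4.81 CPM in DSS 2, 3 and 5, against 57.6, 40.8 and 99.5 CPM in ImP 1, 3 and 4, a log2 change of -3.25 ± 0.47 (edgeR adjusted p = 0.011, 0.0628 without DSS 2 and 0.0707 without DSS 5).

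The Oas genes encode sensors of double-stranded RNA that start the RNase L pathway, and those of the Oas1 cluster are near-identical copies whose reads the counting may split. Oas2 (ENSMUSG00000032690) had 9.37, 21.2 and 14.8 CPM in DSS 2, 3 and 5, and 112, 77.5 and 194 CPM in ImP 1, 3 and 4. The DSS and ImP values did not overlap, and the log2 change was -3.08 ± 0.37 (edgeR adjusted p = 0.00687, and 0.0527 without DSS 5). Oas3 had 17.8, 35.6 and 21.9 CPM in DSS and 160, 103 and 201 CPM in ImP, a log2 change of -2.62 ± 0.35. Oas1a, the member of the list with the highest level per length in DSS, had 65.3, 94.3 and 72.5 CPM in DSS, against 206, 189 and 242 CPM in ImP (-1.46 ± 0.18). The calls of Oas3 and Oas1a were lost without DSS 5, at adjusted p of 0.0701 and 0.0523 in edgeR. Oas1g (ENSMUSG00000066861) changed less than Oas2 but with the smallest SE of the Oas genes described here. It had 33.4, 45.9 and 38.3 CPM in DSS 2, 3 and 5, and 122, 101 and 143 CPM in ImP 1, 3 and 4. Its log2 change was -1.64 ± 0.15 (edgeR adjusted p = 0.00183), its highest adjusted p with any library left out was 0.0124, and it had 107 to 119 CPM in Ctrl. Over the whole family, described after its values were seen, 7 of 10 tested Oas genes fell in DSS and 0 rose.

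Zbp1 (ENSMUSG00000027514), a sensor of Z-form nucleic acids that can start necroptosis, had 48.8, 59.2 and 47.3 CPM in DSS 2, 3 and 5, against 162, 132 and 210 CPM in ImP 1, 3 and 4. The DSS libraries were close together, while ImP 4 stood above the other ImP libraries. The log2 change was -1.70 ± 0.17 (edgeR adjusted p = 0.00211, 0.0229 without DSS 2 and at most 0.0244 with any library left out). Trim34a, a TRIM-family protein, had 13.5, 15.1 and 14.9 CPM in DSS and 34.3, 29.3 and 38.6 CPM in ImP (-1.23 ± 0.13, edgeR adjusted p = 0.0038). A pair of interferon regulatory factors, transcription factors of the pathway, was lower in DSS too. Irf7 differed by -1.71 ± 0.25 and Irf9 by -0.92 ± 0.12 on the log2 scale, with edgeR adjusted p of 0.011 and 0.00863. Irf7 lost its call without DSS 2 or DSS 5, and Irf9 without DSS 5, at adjusted p of up to 0.0741 and 0.0523. The 2 members not called were Ifit2, an inhibitor of translation (-2.5 ± 0.74, edgeR adjusted p = 0.236), and the antiviral GTPase Mx1 (-1.84 ± 0.46, edgeR adjusted p = 0.133). Ifit2 ranged from 3.05 to 62.4 CPM within DSS, and Mx1 stood at 62.7 CPM in ImP 4, against 15.1 and 14.6 CPM in ImP 1 and 3.

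Per length, different genes led the list in DSS and in ImP. By mean FPKM, Ifi27l2a (132), Isg15 (112) and Oas1a (96.6) were highest in ImP, whereas Oas1a (35.8), Irf7 (25.0) and the tether of budding viruses Bst2 (24.5) were highest in DSS. The spread within each group was shared across the list. ImP 4 was the highest ImP library in 31 of the 32 genes and ImP 3 the lowest in 29, with a median ratio of ImP 4 to ImP 3 of 1.89. DSS 3 was the highest DSS library in 28 genes. The summed list stood at 948 to 1329 CPM in DSS, 2767 to 5134 CPM in ImP, 1161 to 1866 CPM in DSS_ImP and 3506 to 4434 CPM in Ctrl. In all 32 genes every DSS library was below every Ctrl library, and in all 32 the ImP values overlapped the Ctrl range. These counts against Ctrl were not made over all genes tested, so no background share stands beside them. In bulk tissue, fewer cells of a type and less RNA per cell cannot be told apart. Without DSS 2, 10 of the 32 were called, all lower, with a median of -1.91. The number called was 2 without DSS 5, 16 without ImP 4, and 21, 25 and 31 without DSS 3, ImP 1 and ImP 3. Across these fits the median stayed between -2.10 and -1.57, and over all genes tested it stayed between -0.0075 and 0.0031.

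**Figure D3:**
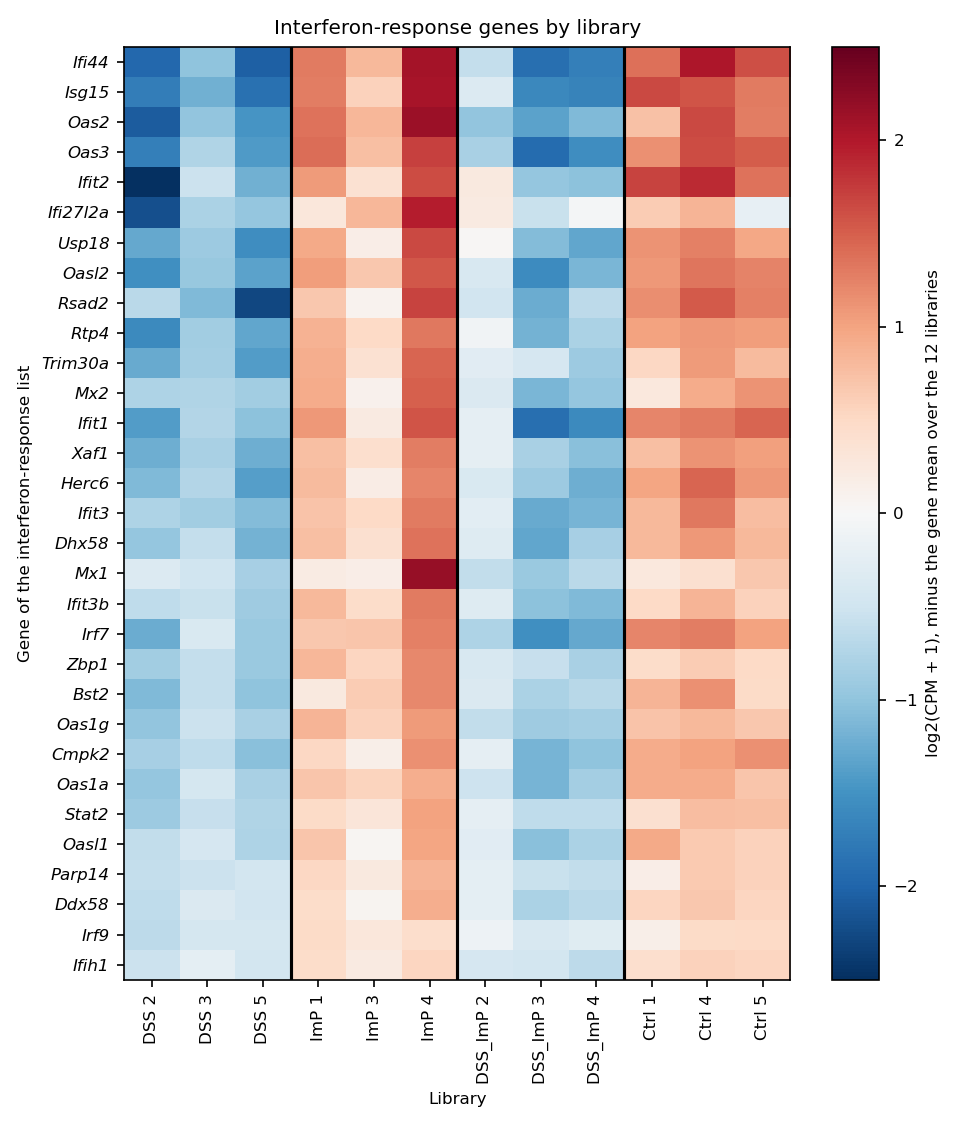
Rows are 31 of the 32 genes of the interferon-response list and columns the 12 libraries; colour is log2(CPM + 1) minus the gene's mean over the 12 libraries. In most rows the DSS columns are below the gene mean (blue) and the ImP columns above it (red), with ImP 4 the darkest of the ImP columns and ImP 3 the lightest.

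Promoters of 5 genes that fell and of 1 that rose are printed because they show how a known interferon element sits at these genes. Each window runs from 250 bases before to 50 bases after the start of the RefSeq gene, 300 bases in all, in the direction of transcription, from RefSeq on GRCm38.p6. Capitals mark matches to GAAANNGAAA, the core of the interferon-stimulated response element (ISRE), or, in Gbp7, also to TTCNNNGAA, the core of the interferon gamma activated site (GAS). Both strands were searched, so an ISRE match on the opposite strand reads TTTCNNTTTC, and overlapping matches run together. Isg15 lies at chr4:156200769-156201068 on the minus strand, Oas1g at chr5:120887564-120887863 on the minus strand, Ifit3 at chr19:34583279-34583578, Gbp2 at chr3:142620413-142620712 and Gbp7 at chr3:142530086-142530385 on the plus strand, and Slc16a3 at chr11:120948817-120949116 on the plus strand.
Isg15: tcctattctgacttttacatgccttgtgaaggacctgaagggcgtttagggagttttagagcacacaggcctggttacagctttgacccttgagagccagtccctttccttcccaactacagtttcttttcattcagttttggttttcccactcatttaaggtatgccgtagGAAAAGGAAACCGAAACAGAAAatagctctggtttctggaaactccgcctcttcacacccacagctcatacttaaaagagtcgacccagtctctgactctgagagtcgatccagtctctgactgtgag
Oas1g: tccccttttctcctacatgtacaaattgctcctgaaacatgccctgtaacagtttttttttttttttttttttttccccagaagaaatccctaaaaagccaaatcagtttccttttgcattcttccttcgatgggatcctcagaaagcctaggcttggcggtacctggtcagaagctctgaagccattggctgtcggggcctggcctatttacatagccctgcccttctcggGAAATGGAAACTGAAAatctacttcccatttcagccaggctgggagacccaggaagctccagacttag
Ifit3: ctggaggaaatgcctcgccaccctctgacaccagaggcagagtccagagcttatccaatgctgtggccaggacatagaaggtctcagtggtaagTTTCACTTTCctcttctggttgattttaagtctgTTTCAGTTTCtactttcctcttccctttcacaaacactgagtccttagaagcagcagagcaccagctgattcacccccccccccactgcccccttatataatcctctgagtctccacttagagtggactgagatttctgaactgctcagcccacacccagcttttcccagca
Gbp2: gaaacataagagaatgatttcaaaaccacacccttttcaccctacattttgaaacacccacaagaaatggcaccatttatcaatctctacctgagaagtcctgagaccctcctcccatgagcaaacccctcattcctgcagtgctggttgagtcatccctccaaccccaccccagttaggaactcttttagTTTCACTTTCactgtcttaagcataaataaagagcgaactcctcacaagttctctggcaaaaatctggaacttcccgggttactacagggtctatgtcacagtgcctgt
Gbp7: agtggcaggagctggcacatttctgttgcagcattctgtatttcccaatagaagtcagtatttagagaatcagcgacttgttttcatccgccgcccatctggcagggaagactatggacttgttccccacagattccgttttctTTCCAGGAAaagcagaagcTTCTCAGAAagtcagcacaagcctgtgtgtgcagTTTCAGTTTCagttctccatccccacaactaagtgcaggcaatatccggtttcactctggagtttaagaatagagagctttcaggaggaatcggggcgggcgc
Slc16a3: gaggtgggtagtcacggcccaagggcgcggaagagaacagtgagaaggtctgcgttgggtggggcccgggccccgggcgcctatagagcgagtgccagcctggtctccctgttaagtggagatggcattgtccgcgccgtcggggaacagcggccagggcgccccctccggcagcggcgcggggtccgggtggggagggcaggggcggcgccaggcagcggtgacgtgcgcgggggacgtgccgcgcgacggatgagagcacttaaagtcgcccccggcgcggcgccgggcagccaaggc

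Isg15 held 3 overlapping ISRE matches, which began 78, 72 and 66 bases before the start of the gene, and Oas1g held 2 overlapping ones at 18 and 12 bases. Ifit3, of the same interferon-induced family as Ifit2, held 2 at 156 and 122 bases. Gbp2 had 1 match at 59 bases, and Gbp7 had 1 at 53 bases together with GAS matches at 106 and 87 bases. Slc16a3, which was higher in DSS, held neither set of letters in this window. Of the 27025 genes with a promoter in the table (32851 windows), 3.99% held an ISRE match and 9.55% a GAS match in at least 1 window. Among the called genes that matched the table, 39 of 97 that were lower in DSS (40.2%) and 2 of 26 that were higher (7.69%) held an ISRE match. In the interferon-response list it was 13 of the 22 members with a promoter, and in the interferon gamma list 11 of 14. Among the lower genes outside the 3 lists, 17 of 64 held an ISRE match. A GAS match was held by 12 of the 97 lower genes (12.4%), near the share of all genes, and by 1 of the 26 higher ones. By list it was 7 of 14 for interferon gamma, 3 of 22 for interferon response and 1 of 11 for MHC class I. Outside the 3 lists it was 5 of the 64 lower genes. A match is a description of the letters and not a tested binding site.

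Called genes that respond mainly to interferon gamma were also lower in DSS. Of 22 tested, 12 fell and 0 rose, with a median log2 change of -1.60, and 20 had all DSS libraries below all ImP libraries. Most of the called members encode GTPases that attack the vacuoles of intracellular microbes. The immunity-related GTPase Irgm2 (ENSMUSG00000069874) had 56.4, 64.1 and 57.1 CPM in DSS 2, 3 and 5, against 172, 184 and 293 CPM in ImP 1, 3 and 4. The DSS libraries were close together and ImP 4 stood above the other ImP libraries. Its log2 change was -1.87 ± 0.24 (edgeR adjusted p = 0.00863, 0.0479 without DSS 2 and 0.0631 without DSS 5). The guanylate-binding protein gene Gbp3 had 12.6, 19.8 and 14.5 CPM in DSS and 62.6, 46.6 and 117 CPM in ImP (-2.27 ± 0.31). Gbp2 had 35.0, 49.9 and 41.6 CPM in DSS and 154, 157 and 322 CPM in ImP (-2.32 ± 0.36). Gbp7 differed by -1.80 ± 0.28 and Iigp1 by -2.65 ± 0.44. The largest change in the list was in Tgtp1 (-2.87 ± 0.53), whose reads may be split with its near-identical copy Tgtp2. In each of these genes every DSS library lay below every ImP library. Gbp3 lost its call without DSS 2 or DSS 5 (edgeR adjusted p = 0.0599 and 0.0701), and Gbp2 without DSS 2, DSS 5 or ImP 4 (0.0913, 0.0919 and 0.0503).

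The interferon gamma calls were fragile to single libraries. Called members numbered 1 without DSS 2, 0 without DSS 5 and 2 without ImP 4, against 5, 12 and 12 without DSS 3, ImP 1 and ImP 3, while the median stayed between -1.79 and -1.21. The chemokines of the list did not pass. Cxcl9, which attracts activated T cells, had 5.65, 19.4 and 15.7 CPM in DSS and 38.1, 29.2 and 65.4 CPM in ImP (-1.70 ± 0.42, edgeR adjusted p = 0.126), and Cxcl10 had 6.97, 7.5 and 5.55 CPM in DSS and 11.7, 15.7 and 39.6 CPM in ImP (-1.74 ± 0.41, edgeR adjusted p = 0.0965). Neither overlapped between the groups. Ifng itself was not called (-2.45, edgeR adjusted p = 0.42). Of 23 T and NK cell markers, 20 had a log2 change below 0, and 0 fell; the median was -0.26, but -0.01 without ImP 4 and -0.49 without ImP 3. Their summed level was 151 to 168 CPM in DSS and 129 to 272 CPM in ImP, where the highest was ImP 4. Their part in the interferon gamma result was not tested.

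Fewer genes of MHC class I presentation passed, and by smaller amounts. Of 13 tested, 4 fell and 0 rose, with a median log2 change of -0.63, and 12 had all DSS libraries below all ImP libraries. Tap1, which pumps peptides into the endoplasmic reticulum, had 64.9, 83.7 and 64.7 CPM in DSS 2, 3 and 5, and 161, 159 and 240 CPM in ImP 1, 3 and 4. The immunoproteasome subunit Psmb9 had 38.1, 44.5 and 37.7 CPM in DSS, against 76.2, 72.1 and 105 CPM in ImP. The ranges were well apart in both genes. Tap1 differed by -1.40 ± 0.22, Psmb9 by -1.07 ± 0.18, the transactivator Nlrc5 by -1.42 ± 0.24 and the loading chaperone Tapbp by -0.61 ± 0.12 (edgeR adjusted p = 0.0155, 0.0179, 0.0211 and 0.0419). None of the 4 was called without DSS 2, without DSS 5 or without ImP 4. The light chain B2m was just past the threshold on the uncalled side (-0.71 ± 0.15, edgeR adjusted p = 0.0515), with 1157, 1254 and 1088 CPM in DSS and 1570, 1853 and 2319 CPM in ImP. For MHC class II, 0 of 9 genes were called by edgeR or DESeq2, although 7 had an unadjusted p below 0.05 in edgeR, with a median of -0.60 that was -0.30 without ImP 4. Cd74, the class II chaperone, had 519 to 768 CPM in DSS and 769 to 1242 CPM in ImP (-0.52 ± 0.22, edgeR adjusted p = 0.474).

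Other lower genes named by size of change included the apolipoprotein L genes Apol9a and Apol9b, the schlafen gene Slfn4 and 3 immunoglobulin variable segments. Apol9a and Apol9b, near-identical copies whose reads may be split, differed by -2.66 ± 0.42 and -2.94 ± 0.50, and neither was called without DSS 2, DSS 5 or ImP 4. Slfn4, a regulator of myeloid cells, had 125, 121 and 96.0 CPM in DSS 2, 3 and 5, and 551, 345 and 1126 CPM in ImP 1, 3 and 4 (-2.56 ± 0.38, edgeR adjusted p = 0.0127, 0.0606 without DSS 2 and 0.0837 without DSS 5). The DSS libraries were alike, whereas ImP 4 stood far above the other ImP libraries. Of 8 tested schlafen genes 3 fell, of 12 genes of the interferon-inducible p200 family of DNA sensors 5 fell, and of 10 guanylate-binding protein genes 5 fell, with 0 rising in each family; these families were grouped after their values were seen. Ninj2, an adhesion protein gene also singled out afterwards, had 0 counts in all DSS libraries and 68 counts over the ImP libraries, which makes it at least 5.58-fold lower in DSS when 0 is replaced by a floor of 12 counts per group (edgeR adjusted p = 0.0314, and 0.116 without DSS 2). The monocyte marker Ly6c2 had 7.01, 14.2 and 12.4 CPM in DSS and 49.2, 39.7 and 52.7 CPM in ImP (-2.07 ± 0.25, edgeR adjusted p = 0.00687, and 0.0523 without DSS 5). It was 16.6 to 21.8 CPM in Ctrl, below all ImP libraries and above all DSS libraries. Of 22 monocyte and macrophage markers it was the only called one, and their sum was 487 to 770 CPM in DSS and 707 to 833 CPM in ImP.

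Each plasma cell clone uses 1 heavy and 1 light chain variable segment. Igkv17-121 had 39.0, 21.4 and 18.6 CPM in DSS 2, 3 and 5, against 204, 82.9 and 340 CPM in ImP 1, 3 and 4 and 32.6 to 51.2 CPM in Ctrl. The ImP libraries were above those of DSS and Ctrl. The log2 changes were -2.99 ± 0.51 for Igkv17-121, -2.75 ± 0.50 for Ighv1-72 and -2.58 ± 0.47 for Ighv1-62-3, with edgeR adjusted p of 0.0209, 0.0288 and 0.0314, and none was called without DSS 2, DSS 3, DSS 5 or ImP 4. Reads of similar segments may be split between them. Of 202 variable segments tested, 4 fell, 0 rose and 154 had a log2 change below 0. Of 24 B and plasma cell markers 0 were called by edgeR (13 at an unadjusted p below 0.05) and 2 by DESeq2, with a median of -1.24 that was -0.17 without ImP 4. Their summed level was 4044 to 4823 CPM in DSS and 4545 to 7457 CPM in ImP. The constant chain gene Igha had 1964, 2093 and 2398 CPM in DSS and 3237, 2164 and 3358 CPM in ImP (-0.44 ± 0.20, edgeR adjusted p = 0.535). The part of these cells in the segment result was not tested.

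**Figure D4:**
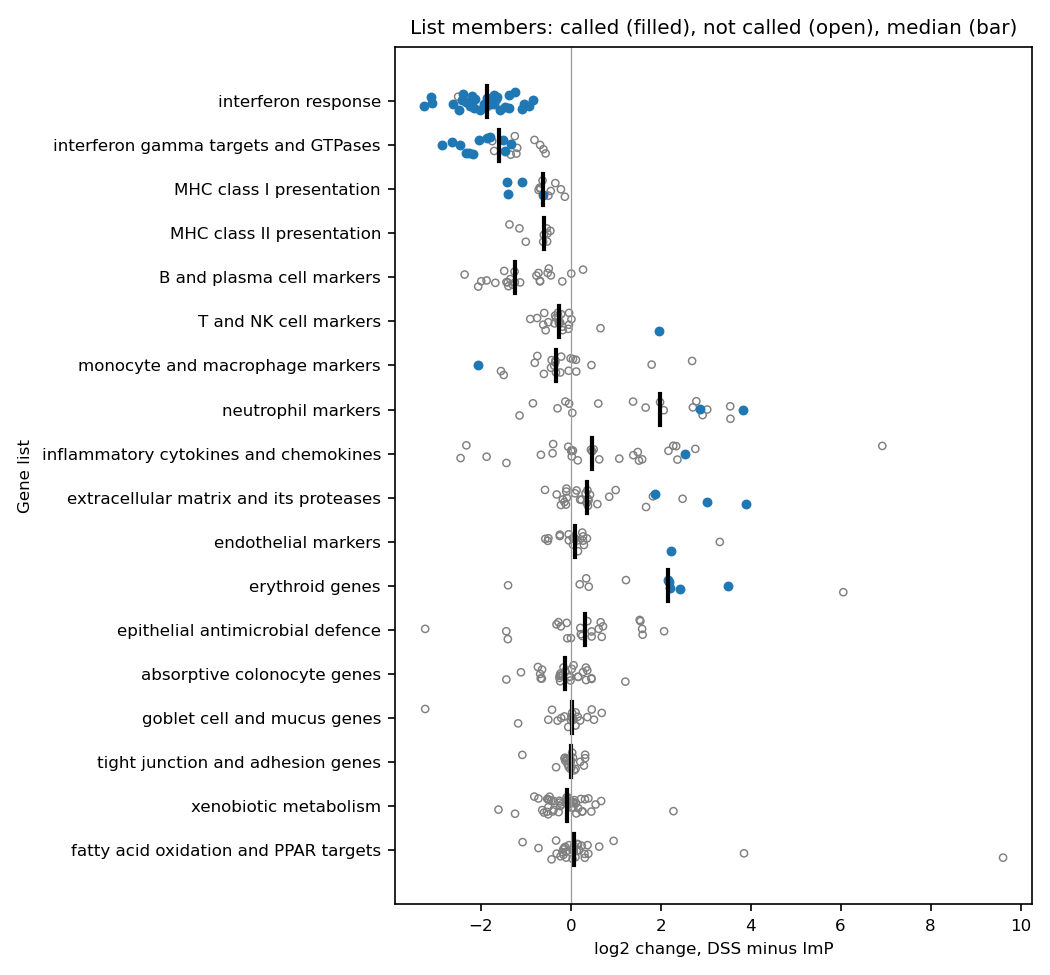
Log2 change (DSS minus ImP, horizontal) of every tested member of 18 gene lists (vertical), with called members filled, others open and the list median as a bar. The interferon-response median is at -1.87 and the erythroid median at 2.17, while the goblet cell median is at 0.03 and the tight junction median at -0.0037.

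Of 29 genes of the extracellular matrix and its proteases, 3 rose in DSS and 0 fell. The list median was 0.36, but 0.07 without DSS 3 and 0.50 without DSS 2, and 9 of the 29 had a log2 change below 0. Spp1 (ENSMUSG00000029304), which encodes osteopontin, a secreted phosphoprotein of macrophages and epithelium, had 4.97, 10.3 and 5.18 CPM in DSS 2, 3 and 5, against 0.242, 0.260 and 0.850 CPM in ImP 1, 3 and 4. Its Ctrl values, 2.14 to 5.55 CPM, were above all ImP libraries and overlapped DSS. The log2 change was 3.90 ± 0.62 (edgeR adjusted p = 0.017, 0.0493 without DSS 2, 0.0701 without DSS 5 and 0.0529 without ImP 1). Mmp10 (ENSMUSG00000047562), a stromelysin, had 13.8, 11.7 and 5.58 CPM in DSS, against 0.935, 1.82 and 1.04 CPM in ImP and 0.196 to 0.461 CPM in Ctrl. Its log2 change was 3.03 ± 0.56 (edgeR adjusted p = 0.0329, and 0.123 without DSS 2). Lox (ENSMUSG00000024529), the lysyl oxidase that crosslinks collagen, was even within groups, with 15.1, 15.9 and 14.2 CPM in DSS and 5.14, 3.82 and 3.31 CPM in ImP. Lox differed by 1.88 ± 0.30 (edgeR adjusted p = 0.017, and 0.0628 without DSS 2), and its Ctrl values were 4.54 to 5.00 CPM. The collagen genes of the list were not called, for example Col1a1 with a log2 change of 0.43 (edgeR adjusted p = 0.77). The number of called members was 1 without DSS 2, 0 without DSS 5 and 1 without ImP 4.

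Haptoglobin (Hp, ENSMUSG00000031722), an acute-phase binder of free haemoglobin, had 19.2, 38.2 and 37.9 CPM in DSS 2, 3 and 5, and 1.26, 5.84 and 2.19 CPM in ImP 1, 3 and 4. It was lowest of the DSS group in DSS 2, the only DSS or ImP library with the liver trace. It stood at 9.96 to 14.5 CPM in Ctrl, whose libraries also held that trace. The log2 change was 3.36 ± 0.51 (edgeR adjusted p = 0.0147) and 3.62 without DSS 2 (edgeR adjusted p = 0.0455); the adjusted p was 0.0701 without DSS 5 and 0.0756 without ImP 4. It was the only called gene of the 20 liver transcripts, whose median of 4.07 was 0.27 without DSS 2. The serine protease inhibitor Serpina3m differed by 3.40 ± 0.47 (edgeR adjusted p = 0.00932), at 1.81, 1.72 and 2.53 CPM in DSS and 0.194, 0.195 and 0.179 CPM in ImP, and lost its call without DSS 5 or ImP 4 (edgeR adjusted p = 0.0625 and 0.0516). Apoa4, also called and mentioned after its values were seen, stood at 1.64 CPM in DSS 2, 0.124 in DSS 3 and 0.230 in DSS 5 and at 0 counts in ImP, at least 10.6-fold higher in DSS by the same floor (edgeR adjusted p = 0.0383, 0.0479 without DSS 2 and up to 0.150 without another library). Its level in DSS 2 moved with the liver trace, whose part in it was not tested.

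**Figure D5:**
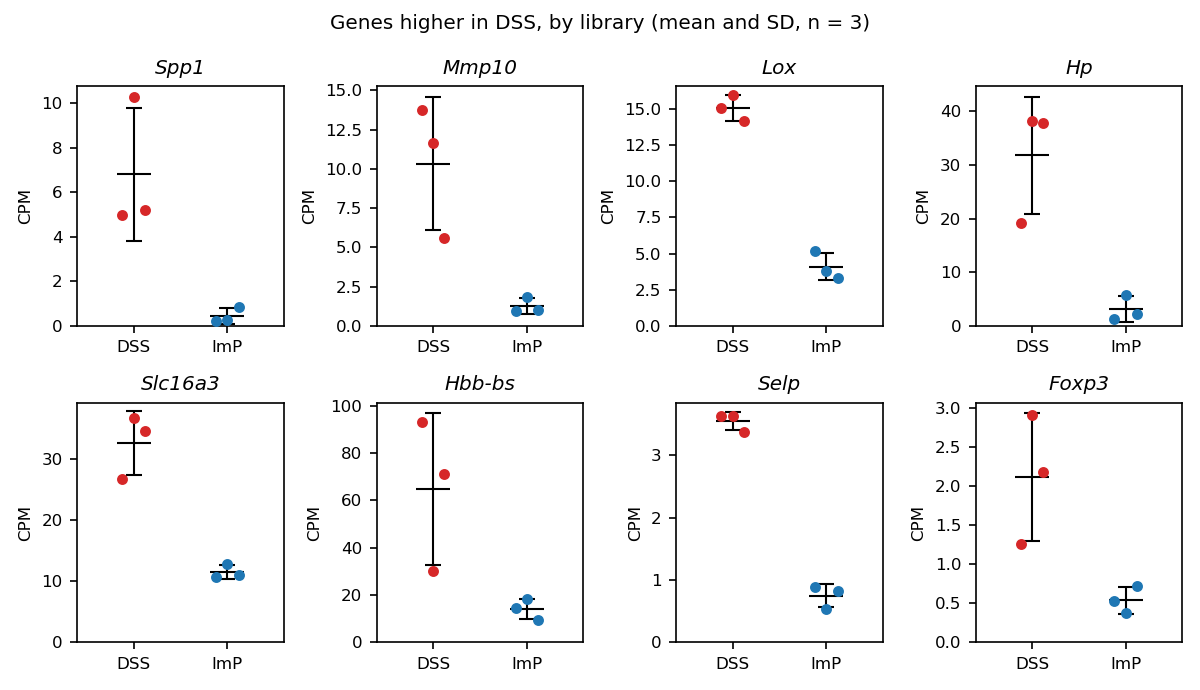
Points are single libraries, in CPM, of 8 genes that were higher in DSS, with the mean and SD of the 3 libraries in each group. All DSS points lie above all ImP points in each panel; Lox and Selp are tight within both groups, and Hbb-bs is lowest of the DSS libraries in DSS 3 at 30.1 CPM.

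All 4 tested globin genes rose in DSS, and with the haem synthesis enzyme Alas2 they made 5 of 11 erythroid genes called, 0 lower, with a median of 2.17 (1.23 with the gene at 0 counts in ImP set at its bound). Hbb-bs (ENSMUSG00000052305) had 93.3, 30.1 and 71.4 CPM in DSS 2, 3 and 5, against 14.5, 18.3 and 9.61 CPM in ImP 1, 3 and 4. Hba-a2 (ENSMUSG00000069917) had 60.9, 18.4 and 45.6 CPM in DSS, against 9.35, 6.96 and 6.83 CPM in ImP. DSS 3 was the lowest DSS library in both genes and still above ImP. Hbb-bs in Ctrl, at 27.9 to 46.6 CPM, was above ImP and overlapped DSS. Of the 11 erythroid genes, 0 had every DSS library above every Ctrl library. In 6 every ImP library was below every Ctrl library, and in 5 the ImP values overlapped the Ctrl range. Here too the counts against Ctrl have no share over all genes beside them. The log2 changes were 2.20 ± 0.41 for Hbb-bs, 2.43 ± 0.38 for Hba-a2, 2.19 ± 0.41 for Hba-a1, 2.17 ± 0.43 for Hbb-bt and 3.50 ± 0.62 for Alas2, with edgeR adjusted p between 0.0154 and 0.0429. Reads of the paired globin copies may be split between them. None of the 5 was called without DSS 2, without DSS 5 or without ImP 4, and the median without DSS 2 was 1.76. The summed erythroid level was 210 to 375 CPM in DSS and 123 to 146 CPM in ImP, and blood retained in the tissue was not measured.

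Fewer inflammatory genes were called than genes of the interferon lists. Of 19 tested neutrophil markers, 2 rose and 0 fell, with a median of 1.99 (1.39 with genes at 0 counts in a group set at their bound). DESeq2 called 4 of the 19, and 6 had an unadjusted p below 0.05 in edgeR. S100a9, a subunit of the granule protein calprotectin, had 10.4, 15.2 and 4.48 CPM in DSS 2, 3 and 5, against 1.5, 0.390 and 0.253 CPM in ImP 1, 3 and 4 (3.82 ± 0.73, edgeR adjusted p = 0.0371, and 0.116 without DSS 2). Clec4d, a myeloid lectin receptor, differed by 2.88 ± 0.57 (edgeR adjusted p = 0.0435, and 0.156 without DSS 2). The partner subunit S100a8 did not separate, with 7.48, 7.18 and 4.58 CPM in DSS and 5.13, 0.748 and 0.209 CPM in ImP, because ImP 1 lay within the DSS range. Its log2 change was 1.67 ± 0.83 (edgeR adjusted p = 0.575). Ly6g, a surface marker of neutrophils, had 106, 69.1 and 34.8 CPM in DSS and 241, 72.0 and 63.1 CPM in ImP (-0.84 ± 0.71, edgeR adjusted p = 0.816), with 0.821 to 7.78 CPM in Ctrl. In ImP 3 and 4 Ly6g did not follow S100a8 and S100a9, which were below 1 CPM there. Of the 19 markers 14 had a log2 change above 0, 6 had all DSS libraries above all ImP libraries and 0 had all below. Their sum was 65.9 to 148 CPM in DSS and 76.6 to 261 CPM in ImP. Ly6g made up most of it, so the sum does not describe the other markers or the number of neutrophils.

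Of 29 inflammatory cytokines and chemokines 1 rose and 0 fell, with a median of 0.48 that was 0.13 without DSS 3 and 0.70 without ImP 1. An unadjusted p below 0.05 in edgeR was found for 14 of the 29, against 2109 of all 22279 genes. DESeq2 called 5, of which 4 were higher and 1 lower in DSS. In 8 members all DSS libraries were above all ImP libraries, and in 0 all were below. Il11, a cytokine of stromal cells that acts through gp130, had 2.94, 4.76 and 1.67 CPM in DSS 2, 3 and 5, against 0.468, 0.813 and 0.328 CPM in ImP 1, 3 and 4. It differed by 2.54 ± 0.51 (edgeR adjusted p = 0.0461, and 0.135 without DSS 2). Interleukin 1 beta (Il1b) was not called, at 12.2, 23.7 and 5.61 CPM in DSS and 5.11, 4.86 and 5.84 CPM in ImP, nor was the neutrophil attractant Cxcl2 (2.28 ± 0.59, edgeR adjusted p = 0.153). Among 24 genes of epithelial antimicrobial defence 0 were called by edgeR (6 at an unadjusted p below 0.05) and 1 by DESeq2, with a median of 0.31 that was 0.19 without ImP 3. The lectin Reg3b had 14406, 8873 and 11706 CPM in DSS and 4182, 6539 and 917 CPM in ImP. Its groups did not overlap, but ImP 4 lay far below the other ImP libraries and the test gave 1.59 ± 0.73 (edgeR adjusted p = 0.531). The siderophore-binding lipocalin Lcn2 had 14.1, 15.1 and 10.1 CPM in DSS and 4.97, 2.19 and 2.16 CPM in ImP (2.08 ± 0.44, edgeR adjusted p = 0.0571).

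Single members of 3 further lists passed. Selp, the P-selectin that captures leukocytes on activated endothelium, had 3.63, 3.62 and 3.37 CPM in DSS 2, 3 and 5, against 0.887, 0.536 and 0.820 CPM in ImP 1, 3 and 4 (2.24 ± 0.37, edgeR adjusted p = 0.0186, and 0.0759 without DSS 2). It was the only called of 21 endothelial markers, whose median was 0.09 and 0.0057 without ImP 1. Foxp3, which marks regulatory T cells, had 1.26, 2.91 and 2.18 CPM in DSS, against 0.532, 0.374 and 0.715 CPM in ImP (1.96 ± 0.38, edgeR adjusted p = 0.0377, and 0.0479 without DSS 2). It was the only called of 23 T and NK cell markers, and its call was lost without any library other than DSS 2. Hsd11b2, the enzyme that inactivates corticosterone in aldosterone target cells, had 408, 296 and 374 CPM in DSS and 243, 183 and 194 CPM in ImP (0.80 ± 0.14, edgeR adjusted p = 0.03, and 0.139 without DSS 2). None of the 26 other genes of sodium, potassium and water transport was called. The epithelial sodium channel subunit Scnn1g had 2.88 to 6.83 CPM in DSS and 0.536 to 1.84 CPM in ImP (1.74 ± 0.63, edgeR adjusted p = 0.384).

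Outside the lists, Slc16a3 (ENSMUSG00000025161), an exporter of lactate, was the higher gene with the smallest p, and it is described because it was the only higher gene called in every fit that left out 1 library. It had 26.8, 36.7 and 34.6 CPM in DSS 2, 3 and 5, against 10.7, 12.9 and 11 CPM in ImP 1, 3 and 4. The DSS and ImP values were well apart, and the ImP values were close to the 9.53 to 10.4 CPM of Ctrl. The log2 change was 1.5 ± 0.14 (edgeR adjusted p = 0.00183, and 0.00159 without DSS 2). Ero1a, an oxidase of the endoplasmic reticulum (0.62 ± 0.11, edgeR adjusted p = 0.0254), and Ddit4, an inhibitor of mTORC1 (0.65 ± 0.12, edgeR adjusted p = 0.0377), were also higher, and were named after their values were seen; without DSS 2 their adjusted p was 0.116 and 0.139. Of 19 tested genes of hypoxia and glycolysis 0 were called by edgeR (4 at an unadjusted p below 0.05) and 1 by DESeq2, and 18 had a log2 change above 0 (median 0.17). Ero1a is not among these 19, because the list named it by its older symbol Ero1l, which matched no gene symbol here. The count of 0 therefore leaves out this called gene. Prss22, a serine protease of the tryptase family, had the largest change among genes named by size, with 3.16, 4.21 and 2.47 CPM in DSS and 0.0806, 0.211 and 0 CPM in ImP (5.07 ± 0.75, edgeR adjusted p = 0.0179, and 0.0606 without DSS 2), and it was at 0 counts in Ctrl. Chrdl2, an antagonist of bone morphogenetic proteins, had 5.53, 6.79 and 4.37 CPM in DSS and 1.26, 0.585 and 0.775 CPM in ImP (2.67 ± 0.37, edgeR adjusted p = 0.00985, 0.0479 without DSS 2, 0.0523 without DSS 5 and 0.0516 without ImP 4).

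The main epithelial programmes were not called different. None of 29 absorptive colonocyte genes, 21 goblet cell and mucus genes, 22 tight junction and adhesion genes, 45 genes of xenobiotic metabolism, 33 of fatty acid oxidation, 19 crypt stem cell genes or 26 cell cycle genes passed in edgeR, with medians of -0.12, 0.03, -0.0037, -0.09, 0.06, -0.18 and -0.30. In the same order, 7, 5, 2, 15, 8, 3 and 4 of their members had an unadjusted p below 0.05, and DESeq2 called 2, 1, 0, 1, 1, 2 and 0. With single libraries left out the medians of the first 5 lists lay between -0.16 and 0.09, with a change of sign in the goblet cell and tight junction lists, and the stem cell median was -0.29 without DSS 3. The secreted mucin Muc2 had 12635, 9584 and 11698 CPM in DSS 2, 3 and 5, and 8809, 14350 and 16112 CPM in ImP 1, 3 and 4, with full overlap. The adhesion protein gene Cdh1 had 857 to 973 CPM in DSS and 879 to 1017 CPM in ImP (-0.07 ± 0.10, edgeR adjusted p = 0.91). The transmembrane mucin Muc3 came nearest among absorptive genes, at 4440, 4689 and 4941 CPM in DSS and 6961, 6669 and 8319 CPM in ImP (-0.64 ± 0.15, edgeR adjusted p = 0.0844). The cell cycle median was -0.05 without DSS 2 and -0.72 without DSS 3. The list summed to 695, 1386 and 906 CPM in DSS 2, 3 and 5, and to 1116 to 1500 CPM in ImP. Smooth muscle genes had a median of -0.39 (-0.17 without ImP 3 and -0.24 without DSS 3), with 0 of 20 called by either tool (3 at an unadjusted p below 0.05) and overlapping sums of 3578 to 5319 CPM in DSS and 4426 to 7683 CPM in ImP. No member was called by edgeR among 35 Hox genes, 19 enteroendocrine, 16 tuft cell, 23 neuron and glia, 18 fibroblast, 11 adipocyte, 12 squamous epithelium or 12 skeletal muscle genes, with medians of -0.01, -0.08, -0.10, -0.12, -0.03, -0.40, -0.11 and -0.33. The same held for 13 mitochondrially encoded transcripts, 23 genes of the unfolded protein response, 22 immediate early factors, 19 clock genes, 20 retinoid genes and 20 pancreatic enzyme transcripts, with medians of 0.10, 0.09, -0.11, -0.05, -0.09 and -0.49. These medians moved with single libraries. The adipocyte median was 0.75 without ImP 3 and -1.01 without DSS 5, that of neurons and glia -0.65 without DSS 2 and 0.06 without DSS 3, and that of tuft cells -0.40 without DSS 2 and 0.01 without ImP 4. The pancreatic median was -0.01 without DSS 2, the library with the low Ctrb1 level, and -1.02 without DSS 3. The skeletal muscle median was -0.70 without DSS 2 and -0.08 without DSS 3, the retinoid median was -0.34 without DSS 5 and the squamous median -0.26 without DSS 5 and -0.02 without DSS 2. The Hox, enteroendocrine, fibroblast and clock medians changed sign with at least 1 library left out, and stayed between -0.13 and 0.09. Over these 14 lists, with 263 members tested, 30 members had an unadjusted p below 0.05 and DESeq2 called 12. Over all 22279 genes tested, 2109 had an unadjusted p below 0.05 in edgeR and DESeq2 called 524. The counts of list members at an unadjusted p below 0.05 are to be read beside that share. A p that misses the threshold does not show that levels were equal. In simulated counts of this size the test recovered 58% of genes changed 4-fold and 40% of genes changed 2-fold. The simulation held no organ traces and no shifts shared by many genes of a library, so these shares may not carry over to the measured libraries.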

How the data were processed

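RNA of mouse colon was sequenced in 12 libraries, 3 in each of 4 groups given by the treatment labels. Per the labels, polyadenylated RNA was selected and libraries kept the strand by dUTP; the sources used here do not say if counting used it. The authors deposited estimated counts per gene, whole and unscaled. FPKM values, per kilobase of transcript and scaled to the library, were deposited by the authors beside them. The submitters' processing notes name cutadapt 1.9, HISAT2 2.0.4, StringTie 1.3.4d and the build GRCm38. Counts of 4 were in excess (12215 values, against 7060 of 3 and 4182 of 5), so a read pair was taken as 4 counts and the floor for a group at 0 as 12 counts over the group, which covers counting error only. The files' gene positions were not used.

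Of 35841 genes, 22279 passed filterByExpr by group. Counts were scaled by trimmed means (TMM) and fitted in R 4.3.3 with edgeR 4.0.16, quasi-likelihood, over the 12 libraries with 1 coefficient per group (common biological coefficient of variation 0.312). Tests were two-sided, with Benjamini-Hochberg adjustment over all tested genes and calls at 0.05. SE was the size of the log2 change divided by sqrt(F). Spearman correlations between libraries were 0.975 to 0.983 within groups and 0.968 to 0.979 between DSS and ImP. Named genes were, per direction, the 12 called genes with the largest change, a mean of at least 1 FPKM on the higher side, no overlap between groups and a symbol that is not a predicted gene. Of each of 40 lists (892 entries, 885 matched), up to 4 called members with the smallest p were added, or the 2 with the highest CPM where none was called. The text names 31 more genes, most of them list members, after their values were seen. A few genes are not reported here. The members and lists were chosen with earlier results of these data known. Promoters came from RefSeq. On simulated counts for this comparison 4.85% of calls were false. Those counts were drawn independently for each gene and library, without organ traces. The share of false calls in the measured data is therefore not known. Alternatives were DESeq2 1.42.0, limma 3.58.1 on log2(FPKM + 1) and log2(FPKM + 0.1), library totals, no filter, at least 1 CPM in 3 libraries, counts divided by 4, a replicate block, fewer libraries in the fit and each library left out.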

Additional observations from a re-analysis of the deposited data

How the results depend on the processing

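The 164 calls became 524 with DESeq2, 100 without a filter, and 87 and 94 with limma on log2(FPKM + 1) and log2(FPKM + 0.1). Library totals gave 128, a minimum of 1 CPM in 3 libraries 181, counts divided by 4 gave 175 and a fit on the 6 libraries alone 131. Leaving out single libraries gave 6 to 195 calls. On DSS 3, DSS 5 and the ImP libraries alone, edgeR called 0 (1678 at an unadjusted p below 0.05) and DESeq2, an alternative chosen after seeing the data, 486; the count of 30 without DSS 2 is to be read beside these. The share of calls higher in DSS was 20.7% and 30.7% with DESeq2. With the number as a replicate block edgeR called 0 genes (1613 at an unadjusted p below 0.05). DSS and ImP share only number 3, so the block leaves little to compare. The deviations of DSS 3 and ImP 3 correlated at -0.0048, against -0.0216 to 0.0140 for the other 8 pairs. With only number 3 shared, these values cannot decide whether the numbers pair samples. Over 128 named genes and all alternatives, 1765 values kept their side of the threshold, 369 lost the call, 28 gained it and 0 reversed. The kept values include genes that were uncalled and stayed so, and they do not measure how stable the calls were. In the replicate block, which called 0 genes, 56 of the 128 lost a call and 72 had none to lose. The lack of overlap between groups largely fixes the direction of called genes, so the 0 reversed is a description only. Genes at few counts, such as Prss22 and Apoa4, have folds set by a few read pairs. The cause of the differences between tools was not tested.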

Other observations

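Sterol synthesis genes, which the report does not describe, were not called by edgeR (11 at an unadjusted p below 0.05; 5 called by DESeq2). Of 28 tested genes of sterol and fatty acid synthesis 24 had a log2 change above 0 (median 0.23), and 10 had all DSS libraries above all ImP libraries. Hmgcs1, a synthase early in the sterol route, had 369, 420 and 466 CPM in DSS 2, 3 and 5, and 282, 271 and 211 CPM in ImP 1, 3 and 4 (0.72 ± 0.18, edgeR adjusted p = 0.126). In Ctrl it had 320 to 454 CPM, which overlapped DSS and lay above all ImP libraries. The median was 0.10 without ImP 4 and 0.31 without ImP 1.

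A set of called genes had ImP values above both DSS and Ctrl in every library; it was singled out after its values were seen. Wfdc2, a secreted protease inhibitor of epithelium, had 9.53, 11.2 and 9.26 CPM in DSS, 54.6, 28.0 and 79.6 CPM in ImP and 13.5 to 20.5 CPM in Ctrl (-2.44 ± 0.46, edgeR adjusted p = 0.0371). Ctse, an aspartic protease of gastric and immune cells, had 7.69, 6.36 and 8.65 CPM in DSS, 38.1, 18.1 and 25.5 CPM in ImP and 5.46 to 9.60 CPM in Ctrl (-1.85 ± 0.37, edgeR adjusted p = 0.046). Gatm, the first enzyme of creatine synthesis, had 5.22, 10 and 7.68 CPM in DSS, 46.2, 16.2 and 20.0 CPM in ImP and 7.10 to 9.38 CPM in Ctrl (-1.84 ± 0.36, edgeR adjusted p = 0.0385). The lowest ImP library was ImP 3 in Wfdc2, Ctse and Gatm. None of these 3 was called without DSS 2, at adjusted p of 0.156, 0.176 and 0.167 in edgeR. Of 9 mast cell markers 0 were called by edgeR or DESeq2 (5 at an unadjusted p below 0.05), with Mcpt1 at 5.45, 8.48 and 8.83 CPM in DSS and 2.5, 3.28 and 3.89 CPM in ImP (1.23 ± 0.40, edgeR adjusted p = 0.298).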
